A study of Arabidopsis thaliana with 8 samples.

Results

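Whole floral stems of Arabidopsis thaliana labelled msh1 were compared with stems of wild type (WT), both in the Col-0 background, by the RNA they held for nuclear genes. The samples were all those titled msh1 Total (2 libraries) and all those titled Col-0 WT Total (2 libraries), which makes 4 of the 8 libraries of the study, and all 32548 nuclear loci of the count tables were considered. Plants grew on peat mix in long-day growth chambers, the replicates are labelled biological, and the labels do not say whether a replicate was 1 plant or a pool. The msh1 allele, the developmental stage within the stem and the time of harvest are not given in the labels. The other 4 libraries, msh1 TRAP and WT TRAP, hold RNA purified with ribosomes that carry FLAG::RPL18 made under the MSH1 promoter, and entered the fit for the common estimate of spread and for a test of whether the genotype effect differed between the fractions. Whole-stem RNA mixes all tissues of the stem and what was harvested with it, so fewer cells of a type and less RNA per cell cannot be told apart.

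MSH1 is a nuclear gene for a MutS homologue that is imported into plastids and mitochondria, where it suppresses recombination between repeats of the organelle DNA. Plants that lose it are known to rearrange their organelle genomes and to show variegated leaves and altered growth. When plant mitochondria are disturbed, a retrograde response raises nuclear genes such as the alternative oxidase AOX1A, type II NAD(P)H dehydrogenases and other members of a shared set of stress genes. Part of this response runs through the membrane-tethered transcription factors NAC017 and NAC13, which bind a promoter sequence called the mitochondrial dysfunction motif.

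That motif was searched as CTTGNNNNNCANG on both strands in the 250 bases before each annotated gene start, because several of the genes with the largest differences belong to the set it is known for. Where the last letters are CAAG, the motif reads the same form on either strand. Promoters were counted for protein-coding genes only. The motif was present in 20 of 77 promoters of genes at least 2-fold higher in msh1 Total (26%). Among all 19900 tested protein-coding genes, 290 promoters held it (1.46%). These promoters come from the TAIR10.1 genome and annotation of RefSeq, run 5′ to 3′ on the strand of the gene and carry the motif in capitals. The first, of AT2G21640 (chr2:9254128-9254377, plus strand), belongs to a gene annotated as a marker for oxidative stress response. The promoter of AT2G04050, a MATE efflux family gene (chr2:1339469-1339718, minus strand), holds the motif at 2 places. The other promoters belong to AT5G54550, a gene of the DUF295 family (chr5:22158114-22158363, plus strand), and AT5G51440, an HSP20-like chaperone gene (chr5:20890913-20891162, plus strand).
AT2G21640: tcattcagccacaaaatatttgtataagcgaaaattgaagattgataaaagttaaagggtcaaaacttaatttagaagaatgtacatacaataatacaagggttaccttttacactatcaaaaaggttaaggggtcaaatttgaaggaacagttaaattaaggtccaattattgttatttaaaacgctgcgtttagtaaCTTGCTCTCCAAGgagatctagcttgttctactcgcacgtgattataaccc
AT2G04050: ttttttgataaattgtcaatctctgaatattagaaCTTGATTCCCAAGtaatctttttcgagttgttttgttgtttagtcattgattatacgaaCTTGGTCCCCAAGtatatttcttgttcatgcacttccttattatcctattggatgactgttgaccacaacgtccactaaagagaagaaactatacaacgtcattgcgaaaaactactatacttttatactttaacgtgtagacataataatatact
AT5G54550: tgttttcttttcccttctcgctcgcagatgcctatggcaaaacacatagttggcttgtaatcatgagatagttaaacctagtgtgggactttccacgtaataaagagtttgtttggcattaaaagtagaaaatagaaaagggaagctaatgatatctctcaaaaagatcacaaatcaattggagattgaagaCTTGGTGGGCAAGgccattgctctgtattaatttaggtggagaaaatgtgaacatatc
AT5G51440: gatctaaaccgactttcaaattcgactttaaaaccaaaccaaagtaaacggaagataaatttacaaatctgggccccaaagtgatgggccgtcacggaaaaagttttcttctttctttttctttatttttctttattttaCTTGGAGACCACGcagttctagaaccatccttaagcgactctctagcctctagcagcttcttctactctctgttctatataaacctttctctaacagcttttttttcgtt

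A second sequence was searched for the genes that were lower in msh1 Total. The RY element CATGCA, the sequence recognised by B3 domain factors of seed maturation such as FUS3 and ABI3, was present on either strand in 104 of 465 promoters of genes at least 2-fold lower in msh1 Total (22.4%). It was present in 11 of 164 promoters of genes lower by less than 2-fold (6.71%). Among all tested protein-coding genes, 1556 promoters held it (7.82%). The G-box CACGTG and the evening element AAAATATCT were searched in the same groups. Their shares were 11.6 and 3.87% in genes at least 2-fold lower, and 12.2 and 6.1% in genes lower by less than 2-fold. In genes at least 2-fold higher they were 7.79 and 3.9%, and over all tested protein-coding genes 7.4 and 2.57%. Shown here, with RY elements in capitals, are the promoters of SESA4, a seed storage albumin (chr4:13613346-13613595, plus strand), and OLEO1, an oleosin of seed oil bodies (chr4:12900180-12900429, plus strand). Runs of capitals longer than the element in SESA4 are overlapping matches.
SESA4: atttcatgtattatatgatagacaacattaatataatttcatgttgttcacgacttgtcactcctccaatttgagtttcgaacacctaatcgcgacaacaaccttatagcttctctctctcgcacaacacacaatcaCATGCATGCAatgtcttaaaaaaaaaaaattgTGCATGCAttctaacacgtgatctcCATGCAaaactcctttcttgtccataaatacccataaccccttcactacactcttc
OLEO1: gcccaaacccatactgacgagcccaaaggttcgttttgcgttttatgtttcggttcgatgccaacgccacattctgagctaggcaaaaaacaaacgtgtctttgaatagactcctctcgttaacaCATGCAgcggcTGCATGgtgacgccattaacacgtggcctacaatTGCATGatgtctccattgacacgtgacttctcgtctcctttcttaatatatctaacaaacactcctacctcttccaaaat

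Gene counts summed to 10067810 and 11930121 in msh1 Total, and to 11638497 and 13611280 in WT Total, so that 3 counts, used here as the floor of a library, stood for 0.2204 to 0.298 CPM (counts relative to the TMM-scaled library). Counts were tested with edgeR in 1 fit of all 8 libraries, which leaves 4 residual degrees of freedom, and a gene is called higher or lower where the p-value adjusted over all 21202 tested genes is at most 0.05. Every p-value measures the spread between these libraries, which may be partly technical. On the first principal component, which held 74.3% of the variance of the 4 Total libraries, msh1 and WT libraries separated. Reads without a unique alignment made up 18.9453 and 18.3104% of the listed counts in msh1 Total, against 15.9033 and 14.8138% in WT Total, and their part in the results was not tested.

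The RNA of MSH1 itself (AT3G24320, chromosome 3, 8822924 to 8829728, minus strand) stood at 27.9 and 30.8 CPM in msh1 Total, against 9.27 and 9.61 CPM in WT Total. Both libraries labelled msh1 were above both WT libraries, by a log2 fold change of 1.63 ± 0.22 (SE, n = 2 each, edgeR adjusted p = 0.000972). As the allele is not stated, this level does not test the genotype, and all directions below are between libraries as labelled.

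In all, 824 genes were called (3.89% of those tested), of which 174 were higher in msh1 Total (0.821%) and 650 lower (3.07%). The higher group was small in effect, with a median log2 fold change of 0.94, and held 79 genes at or above 2-fold (0.373%). The lower group had a median of -1.83 and held 483 genes at or above 2-fold (2.28%). The median log2 fold change of all tested genes was 0.00. The libraries of both genotypes did not overlap for 12149 of the tested genes (57.3%), so a gene with no overlap is not by itself unusual here. The count of calls rested on each Total library. It was 219 without msh1 Total 1, 492 without msh1 Total 2, 304 without WT Total 1 and 390 without WT Total 2, and 1650 without msh1 TRAP 1 and 1616 without msh1 TRAP 2. Of 94 named genes that were called, 46 stayed past the threshold whichever of the 8 libraries was left out.

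**Figure D1:**
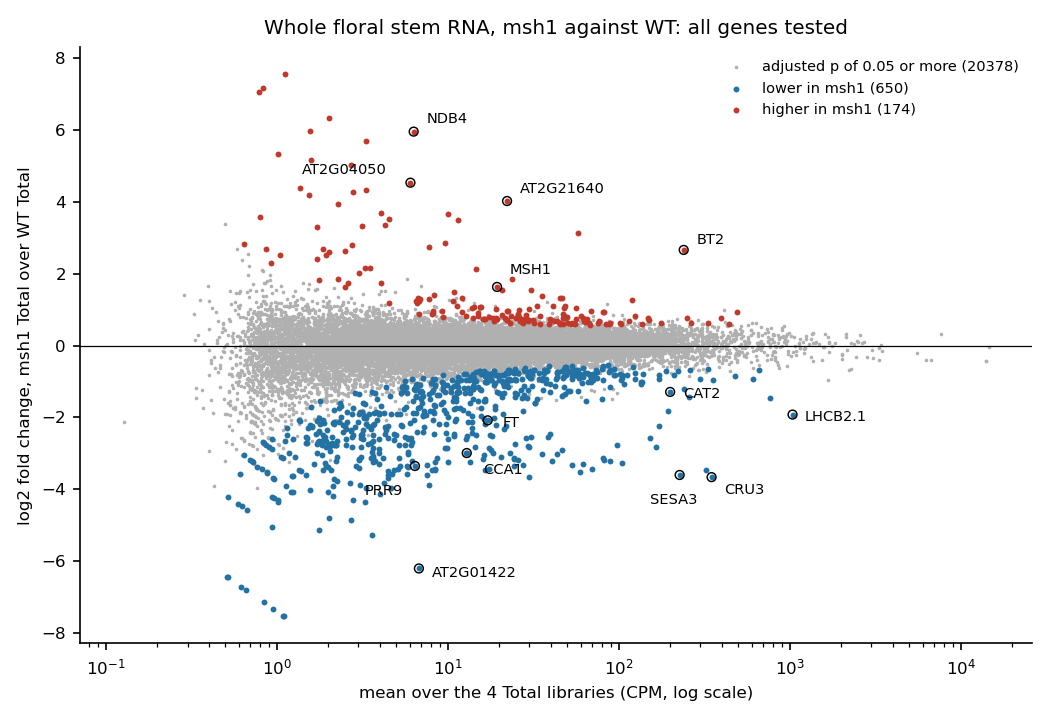
Log2 fold change of msh1 Total over WT Total (vertical axis) against the mean level in CPM (log axis) for the 21202 genes tested, with the 174 genes called higher and the 650 called lower in colour and labels on a few named genes. The called genes below the zero line are more numerous than those above it, and the circled AT2G01422 and NDB4 lie near -6.20 and 5.95.

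Among genes with a symbol that averaged 5 CPM or more, the largest rise was that of NDB4, a type II NAD(P)H dehydrogenase of the mitochondrial inner membrane that passes electrons to ubiquinone without pumping protons. NDB4 (chromosome 2, 8953057 to 8955831, minus strand) had 115 and 179 counts in msh1 Total, or 10.7 and 14.1 CPM, against 2 and 3 counts in WT Total, or 0.169 and 0.207 CPM. The ratio of counts was 66.2, with 28.0 as the lower end of its exact 95% interval, which covers counting error only, and the log2 fold change was 5.95 ± 0.44 (edgeR adjusted p = 4.15e-05). The related NDB3 stood at 2.33 and 4.65 CPM in msh1 Total, against 0.590 and 0.553 CPM in WT Total, and also rose (log2 fold change 2.60 ± 0.48, edgeR adjusted p = 0.00914). Its call ended without msh1 Total 2 (adjusted p 0.128), WT Total 1 (0.0801) or WT Total 2 (0.092).

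AOX1A, the stress-responsive alternative oxidase that passes electrons from ubiquinol to oxygen, was higher by much less. It stood at 76.2 and 78.6 CPM in msh1 Total, against 44.3 and 46.7 CPM in WT Total, higher by 0.77 ± 0.16 on the log2 scale (edgeR adjusted p = 0.0169). The call ended without each of the 4 Total libraries in turn (adjusted p 0.0995 to 0.209). NDA1, a dehydrogenase of the inner face of the membrane that is known to follow light, fell to 8.96 and 9.94 CPM in msh1 Total, against 18.3 and 16.6 CPM in WT Total (-0.88 ± 0.22, edgeR adjusted p = 0.0472), and this call too ended without each of the 4 Total libraries (adjusted p 0.149 to 0.402). Of the 12 alternative oxidases and type II dehydrogenases listed, 9 passed the filter on low counts, and 3 of these were higher and 1 lower, with a median of 0.13. Of all tested genes, 0.821% were higher and 3.07% lower. NDA2 (0.13), NDB1 (0.37), NDB2 (-0.12), NDC1 (0.01) and AOX1D (-0.48) did not pass the test. Summed over the family, the level was 204 and 211 CPM in msh1 Total, against 165 and 162 CPM in WT Total.

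Among 26 regulators and known targets of mitochondrial dysfunction, 24 were tested, 8 were higher and none lower, with a median of 0.59. The fold change was positive in 14 members and negative in 10. In 13 members both msh1 libraries were above both WT libraries, and in 8 they were below both. Of all tested genes, 57.3% have no overlap in one direction or the other. Summed over the list, the level was 912 and 954 CPM in msh1 Total, against 849 and 956 CPM in WT Total. Leaving out 1 Total library gave 5 to 7 higher calls, and 1 lower call without msh1 Total 2, and the median was 0.34 without msh1 Total 1 or WT Total 2. NAC13, a regulator that also raises its own gene, stood at 14.0 and 16.9 CPM in msh1 Total, against 7.16 and 7.19 CPM in WT Total (1.11 ± 0.18, edgeR adjusted p = 0.00384). Its call ended narrowly without msh1 Total 2, WT Total 1 or WT Total 2 (adjusted p 0.0503 to 0.0581). NAC017, which is known to be regulated by its release from the membrane rather than by its RNA, stood at 65.6 and 64.3 CPM in msh1 Total, against 73.2 and 69.6 CPM in WT Total (-0.14), and did not pass the test.

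The largest rises in this group were those of target genes. AT2G21640, whose promoter is shown above, stood at 38.5 and 45.2 CPM in msh1 Total, against 2.28 and 2.83 CPM in WT Total (log2 fold change 4.02 ± 0.23, edgeR adjusted p = 9.74e-06). AT5G51440, the HSP20-like chaperone, stood at 7.56 and 8.12 CPM in msh1 Total, against 0.674 and 0.829 CPM in WT Total (3.35 ± 0.31, edgeR adjusted p = 0.000181). AT2G04050, the MATE efflux family gene with 2 motifs, which is not in the list, stood at 10.8 and 12.4 CPM in msh1 Total, against 0.337 and 0.622 CPM in WT Total (4.53 ± 0.35, edgeR adjusted p = 4.88e-05). For all 3 genes the msh1 libraries lay far above both WT libraries, and the calls held without any 1 library. AT5G09570, a Cox19-like protein of a family of the mitochondrial intermembrane space, is a list member and stood at 17.2 and 20.0 CPM in msh1 Total, against 1.35 and 1.59 CPM in WT Total (3.65 ± 0.31, edgeR adjusted p = 7.73e-05). CRF6, a cytokinin response factor, was higher at 34.9 and 32.0 CPM in msh1 Total, against 15.3 and 21.2 CPM in WT Total (0.87 ± 0.18, edgeR adjusted p = 0.0205). It fell short of the threshold without msh1 Total 1 (adjusted p 0.206), msh1 Total 2 (0.0673) or WT Total 1 (0.281).

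Several members did not move with these targets. DIC2, a dicarboxylate carrier of the mitochondrial inner membrane, stood at 22.6 and 71.9 CPM in msh1 Total, against 109.9 and 158 CPM in WT Total, and did not pass the test (-1.50 ± 0.44, edgeR adjusted p = 0.0832). CYP81D8 (1.27, edgeR adjusted p = 0.057), BCS1 (-0.45), WRKY40 (-0.62) and RCD1 (-0.10) did not pass either, while GSTU25 and ABO3 were too low to be tested.

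**Figure D2:**
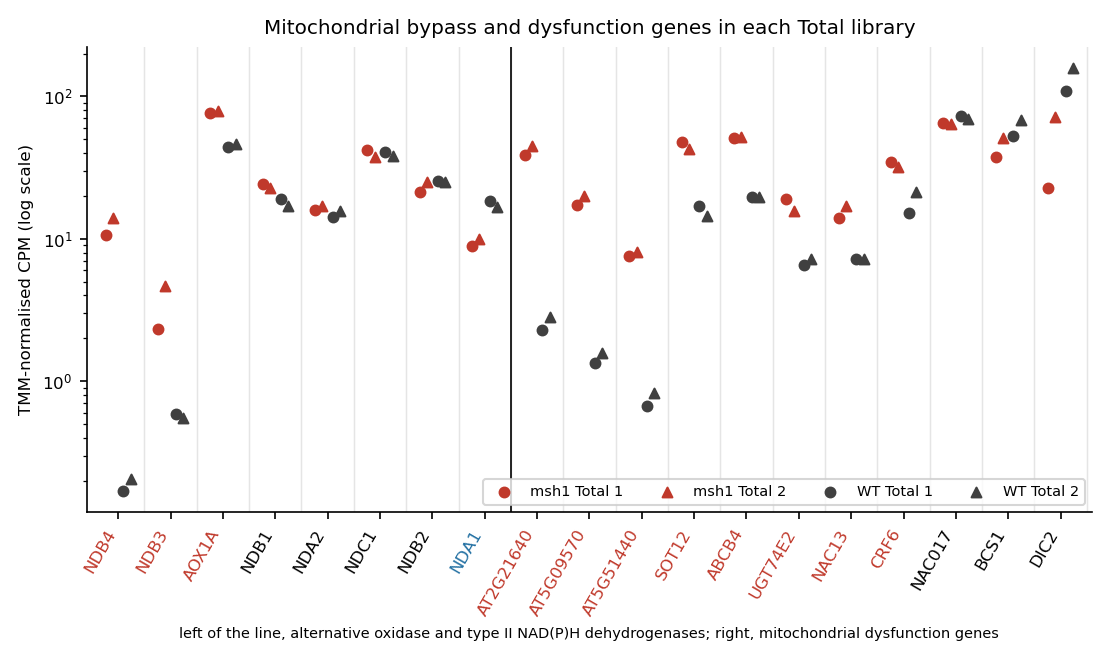
Level in CPM (log axis) of genes of the mitochondrial response in each library, msh1 Total left of WT Total, 1 point per library, with called genes in colour on the axis. AT2G21640 and NDB4 separate the genotypes widely, AOX1A by less, and NAC017 lies close together in both.

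Other genes of this kind, chosen here after their values were seen, were called as well. AT5G54100, an SPFH/Band 7/PHB domain protein, stood at 34.6 and 39.7 CPM in msh1 Total, against 9.61 and 10.8 CPM in WT Total (1.86 ± 0.19, edgeR adjusted p = 0.000255). AT2G41730 stood at 17.4 and 16.2 CPM in msh1 Total, against 2.44 and 2.21 CPM in WT Total (2.85 ± 0.33, edgeR adjusted p = 0.000423). AT2G18193, a gene with the motif in its promoter, stood at 13.2 and 13.9 CPM in msh1 Total, against 2.36 and 1.73 CPM in WT Total (2.73 ± 0.28). A further MATE gene, AT2G04070, lies close to AT2G04050 and stood at 5.88 and 5.60 CPM in msh1 Total, against 0.337 and 0.760 CPM in WT Total (3.32 ± 0.46, edgeR adjusted p = 0.0014). All 4 genes had msh1 libraries above both WT libraries.

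The transcription factor genes NAC044 and NAC085, which in Arabidopsis act together in the arrest of the cell cycle after DNA damage, were almost silent in WT stems. NAC044 had 5.13 and 7.49 CPM in msh1 Total, against 0.253 and 0.346 CPM in WT Total, a ratio of counts of 21.1 with an exact interval of 10.4 to 49.8 (log2 fold change 4.33 ± 0.41, edgeR adjusted p = 0.000191). NAC085 had 15 and 22 counts in msh1 Total and 0 in both WT Total libraries, at least 6.81-fold higher against the floor of 3 counts per library, and its call ended without WT Total 2 (adjusted p 0.0507). Both were picked after their values were seen. The list of 18 DNA damage genes did not move with them: 1 member, PARP2, a poly(ADP-ribose) polymerase, was called higher at 10.2 and 7.97 CPM in msh1 Total, against 4.55 and 3.18 CPM in WT Total (1.23), and that call ended without each of the 4 Total libraries. The median of that list was 0.24.

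A hypoxia-related pair also rose. ERF71, an ethylene response factor of the group that senses oxygen, had 29 and 32 counts in msh1 Total, against 1 and 2 counts in WT Total, a ratio of 22.9 with an exact interval of 7.47 to 114 (log2 fold change 4.38 ± 0.61, edgeR adjusted p = 0.00141). HB1, a haemoglobin that scavenges nitric oxide, stood at 5.41 and 6.07 CPM in msh1 Total, against 1.77 and 0.829 CPM in WT Total (2.17 ± 0.36, edgeR adjusted p = 0.00462; 0.0691 without WT Total 2). They were the only calls in the list of 14 hypoxia genes, whose median was -0.06.

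A family with no assigned function, DUF295, held some of the largest ratios of the data. It was gathered by the wording of the annotated product, after its values were seen. Of 69 members, 19 passed the filter on low counts, 8 were higher and none lower. Of all tested genes, 0.821% were higher and 3.07% lower. The median of the list was 0.64, and 0.44 to 0.80 without 1 of the Total libraries. Members near 0 in WT libraries could pass the filter only through msh1 libraries, so a fall could not be called for them. The split of the calls is therefore no test of direction. AT5G52940 stood at 18.1 and 23.7 CPM in msh1 Total, against 1.94 and 1.80 CPM in WT Total (log2 fold change 3.48 ± 0.25, edgeR adjusted p = 2.66e-05). AT5G54550 had 69 and 83 counts in msh1 Total, against 1 and 2 counts in WT Total, a ratio of 57.0 with an exact interval of 19.1 to 279.6. AT5G54560 had 55 and 68 counts in msh1 Total, against 1 and 3 counts in WT Total, a ratio of 34.6 with an interval of 13.2 to 129. In AT5G54550, AT5G54560, AT5G54450, AT5G53230 and AT4G25930, WT stems gave at most 3 counts in a library. AT5G53230 had 23 and 29 counts in msh1 Total and 0 in both WT libraries, at least 9.63-fold higher against the floor. Members of a family can share reads, and how the counting split them is not given.

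The mitochondrial dysfunction motif was held by 5 of the 19 tested DUF295 promoters (26.3%). It was held by 3 of 18 in the seed storage list (16.7%), whose calls were all lower. In the mitochondrial dysfunction list 4 of 24 held it (16.7%): AT2G21640 and AT5G51440, both higher, and NAC017 and CYP81D8, which did not pass the test. Among alternative oxidases and type II dehydrogenases 3 of 9 held it (33.3%): NDB3, higher, NDA1, lower, and NDB2, which did not pass. By group of genes, the motif was present in 4 of 90 promoters of genes higher by less than 2-fold (4.44%). It was present in 17 of 465 promoters of genes at least 2-fold lower (3.66%) and in 3 of 164 lower by less than 2-fold (1.83%). The palindromic form ending in CAAG made up most of the matches among genes at least 2-fold higher, at 14 of 77 promoters (18.2%), against 0.573% of all tested promoters. The form ending in CACG was present in 7 of 77 (9.09%), against 0.387%. Among genes at least 2-fold lower, the CAAG form was present in 4 of 465 promoters (0.86%) and the CACG form in 2 (0.43%). In the seed storage list no promoter held either form, so its matches ended in other letters. Single sites in these promoters were CTTGgggagCAAG in NAC044, CTTGgtggaCAAG in AT5G24640, CTTGgtgccCAAG in AT4G25930 and, on the opposite strand, CTTGacggcCACG in NDB3, in which capitals mark the fixed letters. The promoter of NDB4 held no match in this window. A match describes the letters of the promoter and does not show that a factor binds there.

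**Figure D3:**
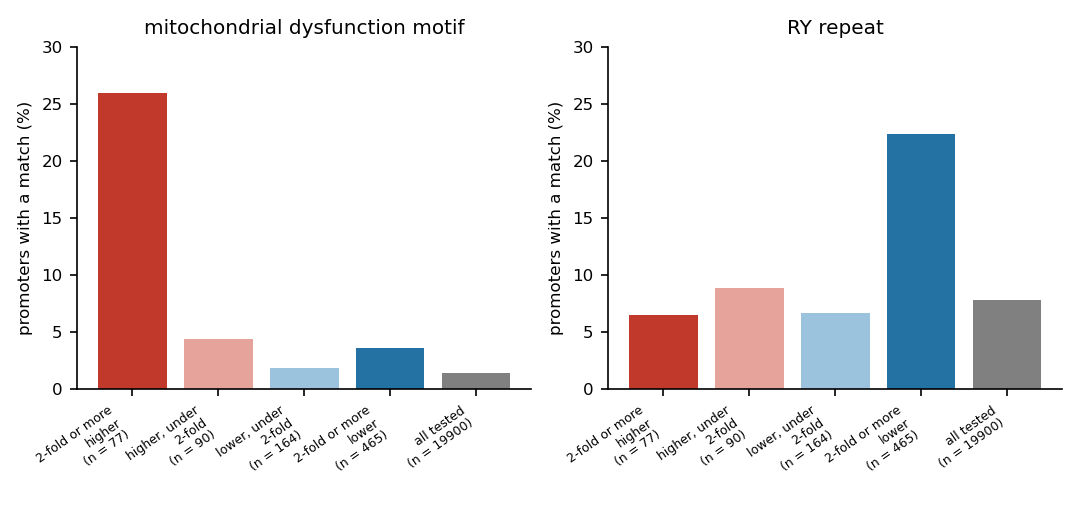
Percent of promoters (250 bases before the gene start) that hold the mitochondrial dysfunction motif or the RY element, by group of protein-coding genes. All tested protein-coding genes are given for comparison. The first motif stands at 26% in genes at least 2-fold higher in msh1 Total and at 1.46% over all tested protein-coding genes. The RY element stands at 22.4% in genes at least 2-fold lower and at 7.82% over all.

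Genes that handle organelle DNA moved little. Of 24 listed, 3 were higher and none lower, with a median of 0.29; the third is MSH1. WHY3, a single-stranded DNA binding protein of plastids, stood at 25.7 and 22.9 CPM in msh1 Total, against 15.1 and 13.1 CPM in WT Total (0.78 ± 0.17, edgeR adjusted p = 0.0242). AT1G30680, a toprim domain protein known as the organelle DNA helicase and primase, stood at 35.5 and 32.3 CPM in msh1 Total, against 21.5 and 20.1 CPM in WT Total (0.70 ± 0.16, edgeR adjusted p = 0.0261). Both calls ended without each of the 4 Total libraries, with adjusted p from 0.0728 to 0.281 for WHY3 and from 0.0881 to 0.298 for AT1G30680. In the list, 18 members had both msh1 libraries above both WT libraries, where 57.3% of all tested genes have no overlap in one direction or the other.

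Nuclear genes for plastid machines showed small differences that mostly ran one way. These lists were added after values were seen. Over all tested genes, the libraries of the genotypes did not overlap for 57.3%, in one direction or the other. Of 16 proteins associated with the plastid-encoded RNA polymerase, which transcribes plastid photosynthesis genes, 5 were higher and none lower (median 0.50). FLN2, a fructokinase-like subunit of that complex, stood at 62.8 and 64.4 CPM in msh1 Total, against 37.7 and 35.3 CPM in WT Total (0.80 ± 0.14, edgeR adjusted p = 0.00484), and FSD2, an iron superoxide dismutase that sits with it, at 29.8 and 30.2 CPM in msh1 Total, against 16.1 and 17.9 CPM in WT Total (0.82 ± 0.17, edgeR adjusted p = 0.0186). Of 17 nuclear genes of the chloroplast NDH complex, which drives cyclic electron flow, 6 were higher and none lower (median 0.52). CRR1, needed for its assembly, stood at 50.8 and 48.4 CPM in msh1 Total, against 29.8 and 29.2 CPM in WT Total (0.75 ± 0.14, edgeR adjusted p = 0.00903). Of 12 chaperonins of plastids and mitochondria, 3 were higher (median 0.52), among them CPN60B at 541 and 520.3 CPM in msh1 Total, against 349.8 and 351 CPM in WT Total. In all 3 lists every member had both msh1 libraries above both WT libraries, but few of the calls held: without any 1 Total library, none remained in the NDH and chaperonin lists, and 1 in the polymerase list without msh1 Total 2.

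Most mitochondrial genes of Arabidopsis also have a copy in the nucleus, since a copy of the mitochondrial genome sits in chromosome 2. Aligned to the mitochondrial genome of the same assembly with BLAST, this insertion spanned chr2:3239038-3509765, and 99.6% of it matched at an identity of at least 99%. The mitochondrial and plastid loci of the tables held 0 counts in every library, while 61 of the 124 nuclear loci in the insertion were tested. Of these, 5 were called higher and 1 lower, the median was 0.54, and 47 had both msh1 libraries above both WT libraries. Over all tested genes, 0.821% were higher and 3.07% lower, and 57.3% had no overlap in one direction or the other.

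Some called loci of the insertion aligned with coding sequence of mitochondrial genes, AT2G07696 with rps7, AT2G07707 with atp8 and AT2G07655 with nad1. AT2G07695, annotated as cytochrome c oxidase subunit II-like, aligned with the mitochondrial genome but with no annotated coding sequence there. It stood at 104 and 102 CPM in msh1 Total, against 12.6 and 11.0 CPM in WT Total, 8.75-fold higher (log2 fold change 3.13 ± 0.21, edgeR adjusted p = 2.58e-05). AT2G07696, an S7-like ribosomal protein, stood at 4.39 and 6.23 CPM in msh1 Total, against 0.0843 and 0.415 CPM in WT Total, a ratio of counts of 20.3 with an exact interval of 9.55 to 51.4. AT2G07707, annotated as ATPase subunit 8, stood at 3.08 and 3.39 CPM in msh1 Total, against 0.590 and 0.415 CPM in WT Total (2.68 ± 0.46, edgeR adjusted p = 0.00529; 0.079 without WT Total 2). The abundant copies differed little: AT2G07698, annotated for the ATP synthase alpha subunit, stood at 458 and 479 CPM in msh1 Total, against 570.4 and 508 CPM in WT Total (-0.20, edgeR adjusted p = 0.649). AT2G07687, annotated for cytochrome c oxidase subunit III, averaged 204 ± 1.19 CPM in msh1 Total and 161 ± 13.7 CPM in WT Total (SD, n = 2 each; log2 fold change 0.34, edgeR adjusted p = 0.426). Summed over all 124 loci of the insertion, the level was 1822 and 1872 CPM in msh1 Total, against 1594 and 1460.4 CPM in WT Total. Without AT2G07695 the sums were 1718 and 1769.8 CPM in msh1 Total, against 1582 and 1449 CPM in WT Total. Reads of mitochondrial transcripts and of the nuclear copy cannot be told apart in these tables, and the region was chosen after its values were seen.

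**Figure D4:**
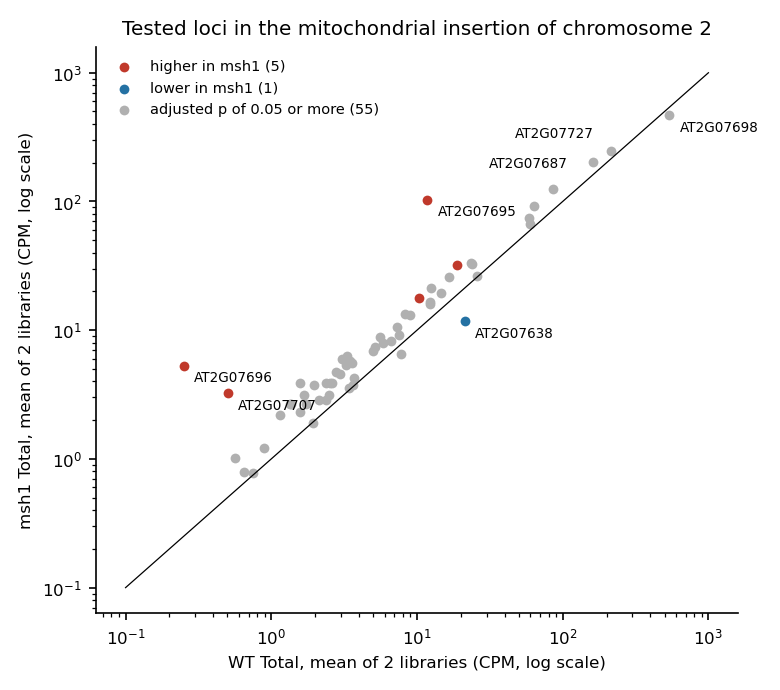
Mean level of each of the 61 tested loci of the mitochondrial insertion in msh1 Total (vertical log axis, CPM) against WT Total (horizontal log axis, CPM), with the line of equal levels and called loci in colour. Most loci lie a little above the line, AT2G07695 and AT2G07696 far above it, and AT2G07638 below it.

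On the lower side, the largest group was that of seed storage, oil body and maturation genes. Of 21 listed, 18 were tested, 16 were lower and none higher, with a median of -3.33. All 18 had both msh1 libraries below both WT libraries, where 57.3% of all tested genes have no overlap in either direction. Summed over the list, the level was 128 and 311 CPM in msh1 Total, against 2619.8 and 2183 CPM in WT Total. LEC2 and EM1, which were not tested, had 0 counts in both msh1 libraries. Leaving out 1 Total library left 14 or 15 lower calls.

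CRU3, a cruciferin that makes up seed storage protein, stood at 30.2 and 71.8 CPM in msh1 Total, against 719.7 and 573 CPM in WT Total, 12.6-fold lower (log2 fold change -3.66 ± 0.43, edgeR adjusted p = 0.000522). SESA3, a seed storage albumin, stood at 18.8 and 50.3 CPM in msh1 Total, against 463 and 378 CPM in WT Total (-3.60 ± 0.41). OLEO1, whose promoter is shown above, stood at 4.48 and 14.2 CPM in msh1 Total, against 113 and 107 CPM in WT Total (-3.53 ± 0.42, edgeR adjusted p = 0.000516). In each of these the second msh1 library was above the first by more than 2-fold, and both were far below WT. The same held for CRA1 at 32.4 and 75.7 CPM in msh1 Total, against 661 and 533 CPM in WT Total, and for OLEO2 at 2.61 and 5.92 CPM in msh1 Total, against 46.9 and 42.0 CPM in WT Total. Cruciferins and albumins are families of close copies, and reads may be split or lost between them.

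Regulators of seed maturation were low in all libraries. LEC1, a subunit of the NF-Y factor of embryos, had 2 and 4 counts in msh1 Total, against 27 and 28 counts in WT Total (-2.98), a call that ended without each of the 4 Total libraries. ABI3 was lower by -3.37, a call that ended without msh1 Total 1 (adjusted p 0.0772), and FUS3 (-1.38, edgeR adjusted p = 0.206) and WRI1 (-0.93, edgeR adjusted p = 0.103) did not pass the test. The RY element was present in 13 of the 18 promoters of the tested list (72.2%).

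Seed coat and ovule markers ran the same way, with 6 of 14 tested members lower and none higher (median -1.55). TT10, a laccase of the seed coat, stood at 2.52 and 5.52 CPM in msh1 Total, against 37.8 and 27.9 CPM in WT Total (edgeR adjusted p = 0.000546). BAN, the anthocyanidin reductase of the inner seed coat layer, stood at 3.73 and 4.65 CPM in msh1 Total, against 42.6 and 20.5 CPM in WT Total (-2.90 ± 0.43, edgeR adjusted p = 0.00212). Calls in this list numbered 3 without msh1 Total 1, 5 without msh1 Total 2, 4 without WT Total 1 and 6 without WT Total 2, and the median was -0.84 without WT Total 1. Of floral organ identity genes, 3 of 11 tested were lower (median -0.69): AG stood at 5.51 and 5.05 CPM in msh1 Total, against 10.2 and 11.3 CPM in WT Total (-1.03), and SEP2 and SEP3 were lower by -0.90 and -0.79. All 3 calls ended without msh1 Total 1, WT Total 1 or WT Total 2 (adjusted p 0.0534 to 0.482), those of AG and SEP2 also without msh1 Total 2 (0.198 and 0.0517) and that of SEP3 without WT TRAP 2 (0.0528). Markers of pollen and tapetum showed no call among 10 tested, with a summed level of 45.3 and 46.5 CPM in msh1 Total, against 46.1 and 42.0 CPM in WT Total.

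Seed markers were thus detected in all 4 Total libraries and were lower in those labelled msh1, and their part in the other differences was not tested. The 2 msh1 libraries differed along the same line: among the 483 genes at least 2-fold lower in msh1 Total, msh1 Total 2 exceeded msh1 Total 1 by more than 1.5-fold in 210 (43.5%), against 1169 of all 21202 genes (5.51%). The reverse was true of 19 of the 483 (3.93%), against 4.56% of all genes. Among the 174 higher genes the share with msh1 Total 2 above msh1 Total 1 by that much was 2.3%.

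**Figure D5:**
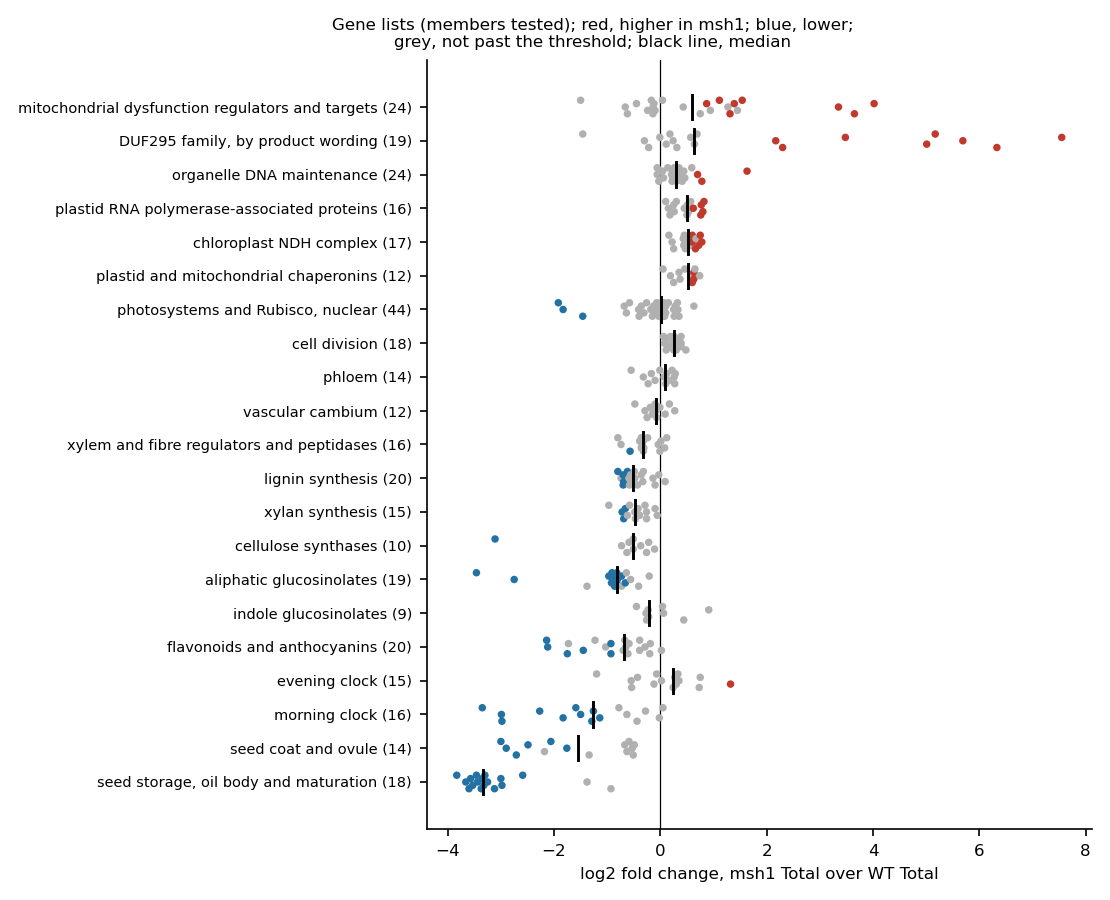
Log2 fold changes of msh1 Total over WT Total for the tested members of selected gene lists, 1 point per gene with the median of each list as a bar. The seed storage list sits at a median of -3.33 and the morning clock list at -1.27. The list of phloem genes sits at 0.08 and that of cell division genes at 0.26.

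Morning genes of the circadian clock were mostly lower in msh1 Total. Of 16 listed, 10 were lower and none higher (median -1.27), and 6 to 9 calls were left without 1 of the Total libraries. CCA1, a MYB-like factor that peaks at dawn and represses evening genes, stood at 1.96 and 3.71 CPM in msh1 Total, against 23.4 and 22.3 CPM in WT Total (log2 fold change -2.99 ± 0.30, edgeR adjusted p = 0.000226). Its partner LHY stood at 1.68 and 1.26 CPM in msh1 Total, against 9.27 and 5.05 CPM in WT Total (-2.27 ± 0.36, edgeR adjusted p = 0.00318). PRR9, a pseudo-response regulator of the morning, stood at 0.467 and 1.74 CPM in msh1 Total, against 11.9 and 11.6 CPM in WT Total (-3.35 ± 0.37, edgeR adjusted p = 0.000341). In all 3 both msh1 libraries were below both WT libraries.

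COL1, a B-box protein, stood at 3.27 and 3.94 CPM in msh1 Total, against 13.3 and 12.4 CPM in WT Total (-1.83 ± 0.23, edgeR adjusted p = 0.000641), although it overlaps AT5G15845, so that its reads are uncertain. AT5G64170, listed among the morning clock genes, stood at 26.3 and 32.9 CPM in msh1 Total, against 72.0 and 69.7 CPM in WT Total (-1.26 ± 0.16, edgeR adjusted p = 0.00075). PRR7 did not follow, at a log2 fold change of 0.05. Among 15 evening genes 1 was higher and none lower (median 0.24): JMJD5, a histone demethylase-like protein of the evening, stood at 69.1 and 60.5 CPM in msh1 Total, against 24.9 and 26.8 CPM in WT Total (1.32 ± 0.19, edgeR adjusted p = 0.0019). TOC1 (0.24), GI (-0.54, edgeR adjusted p = 0.253) and PRR5 (-1.20, edgeR adjusted p = 0.0512) did not pass the test. The labels give no time of harvest, so genotype and hour of sampling cannot be told apart for these genes.

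FT, the florigen made in veins, stood at 5.69 and 7.34 CPM in msh1 Total, against 28.7 and 26.6 CPM in WT Total (-2.08 ± 0.27, edgeR adjusted p = 0.000814), and its call held without any 1 library. AGL24, a MADS-box promoter of flowering, stood at 34.3 and 25.2 CPM in msh1 Total, against 13.9 and 16.2 CPM in WT Total (0.97 ± 0.21, edgeR adjusted p = 0.0198), and its call ended without msh1 Total 1 (adjusted p 0.292), WT Total 1 (0.211) or WT Total 2 (0.0807).

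Light harvesting genes were little changed as a group, with 3 of 44 photosystem and Rubisco genes lower and none higher (median 0.02), yet all 3 were the LHCB2 antenna proteins. LHCB2.1 stood at 382 and 488 CPM in msh1 Total, against 1837 and 1451 CPM in WT Total (-1.92 ± 0.23, edgeR adjusted p = 0.000582). LHCB2.2 and LHCB2.3 were lower by -1.46 and -1.83, the first not past the threshold without msh1 Total 1 (adjusted p 0.079), and the 3 copies may share reads. CAB1, an LHCB1 antenna gene, stood at 14468 and 14299.6 CPM in msh1 Total, against 15519 and 14120.0 CPM in WT Total (-0.04).

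GLK2, a transcription factor that drives antenna and chlorophyll genes, stood at 20.4 and 25.6 CPM in msh1 Total, against 54.4 and 58.7 CPM in WT Total (-1.30 ± 0.17, edgeR adjusted p = 0.000814). SIGE, a light-regulated sigma factor of the plastid RNA polymerase, averaged 8.92 ± 1.66 CPM in msh1 Total and 33.3 ± 3.58 CPM in WT Total (SD, n = 2 each; log2 fold change -1.89 ± 0.23, edgeR adjusted p = 0.000582). AT4G35090 (CAT2), a peroxisomal catalase, stood at 103 and 129 CPM in msh1 Total, against 284 and 283 CPM in WT Total (-1.29 ± 0.20, edgeR adjusted p = 0.00304; 0.0822 without msh1 Total 1). In these genes both msh1 libraries were below both WT libraries.

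Lists of cell wall genes held few calls. Of 10 cellulose synthases 1 was lower, with a median of -0.51. All 10 had msh1 libraries below both WT libraries, where 57.3% of all tested genes have no overlap in one direction or the other. The call was CESA10, at 2.15 and 6.15 CPM in msh1 Total, against 42.9 and 30.8 CPM in WT Total (-3.11 ± 0.43, edgeR adjusted p = 0.00127). The subunits of the secondary wall complex, CESA4 (-0.73, edgeR adjusted p = 0.0578), IRX3 (-0.59, 0.0709) and IRX1 (-0.63, 0.0641), did not pass the test. CESA4 stood at 199.9 and 287 CPM in msh1 Total, against 388 and 418 CPM in WT Total.

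Of 15 xylan synthesis genes 3 were lower (median -0.47), among them GAUT12 at 32.2 and 42.1 CPM in msh1 Total, against 57.4 and 59.9 CPM in WT Total (-0.66, edgeR adjusted p = 0.0337). The xylan list kept 1 lower call without msh1 Total 2 and 0 without msh1 Total 1, WT Total 1 or WT Total 2, and the GAUT12 call ended without msh1 Total 1 (adjusted p 0.499), WT Total 1 (0.203), WT Total 2 (0.254), WT TRAP 1 (0.0521) or WT TRAP 2 (0.0663). Of 20 lignin genes 5 were lower (median -0.52), and none of these calls was left without any 1 of the Total libraries. PAL2, a phenylalanine ammonia-lyase at the head of the pathway, stood at 92.4 and 109 CPM in msh1 Total, against 179 and 171 CPM in WT Total (-0.80 ± 0.16, edgeR adjusted p = 0.0148). OMT1, a methyltransferase of monolignol synthesis, stood at 149.9 and 189 CPM in msh1 Total, against 256 and 294 CPM in WT Total (-0.70). Regulators and peptidases of xylem and fibres had a median of -0.32 with 1 of 16 lower.

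Lists for other stem tissues held no call. Cambium genes had a median of -0.09 over 12 members, phloem genes 0.08 over 14, epidermis, wax and cutin genes -0.19 over 29, and stomata and guard cell genes 0.06 over 19. SUC2, the sucrose transporter of companion cells, stood at 212 and 230.2 CPM in msh1 Total, against 264 and 257 CPM in WT Total, and ATHB-15, a factor of cambium and vessels, at 96.9 and 102 CPM in msh1 Total, against 106 and 103 CPM in WT Total. The 18 cell division genes had a median of 0.26, all positive and none past the threshold.

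Aliphatic glucosinolate genes, which make the methionine-derived defence compounds of the stem, were lower at 13 of 19 members (median -0.82). In 17 members msh1 libraries were below both WT libraries, where 57.3% of all tested genes have no overlap in either direction. CYP79F1, the enzyme that starts the core pathway, stood at 198 and 284 CPM in msh1 Total, against 467 and 478 CPM in WT Total (-0.97 ± 0.20, edgeR adjusted p = 0.019). AOP3, a side chain dioxygenase, stood at 0.373 and 1.18 CPM in msh1 Total, against 7.92 and 9.95 CPM in WT Total (-3.46 ± 0.52, edgeR adjusted p = 0.00216), and its call held without any 1 library. Without msh1 Total 1, WT Total 1 or WT Total 2 the call of CYP79F1 ended (adjusted p 0.341, 0.12 and 0.121). MYB29, a regulator of the pathway, was called at -0.81 (edgeR adjusted p = 0.047). This was lost without msh1 Total 1 (0.523), WT Total 1 (0.262), WT Total 2 (0.185) or either WT TRAP library (0.0759 and 0.0863). MYB28 (-0.41, edgeR adjusted p = 0.404) did not pass the test. The count rested on single libraries, with 1 lower call without msh1 Total 1, 12 without msh1 Total 2, 3 without WT Total 1 and 2 without WT Total 2. Indole glucosinolate genes showed no call among 9 (median -0.22), nor did 7 myrosinase genes, which break glucosinolates down (median 0.11).

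Flavonoid and anthocyanin genes were lower at 6 of 20 members and higher at none (median -0.68). DFR, the dihydroflavonol reductase, stood at 4.57 and 5.13 CPM in msh1 Total, against 29.4 and 13.8 CPM in WT Total (-2.14 ± 0.39, edgeR adjusted p = 0.00849). LDOX (-1.75), TT8, a bHLH regulator of these genes (-2.12), and MYBL2, a repressor of them (-0.93), were also lower. All 4 calls ended without msh1 Total 1 or WT Total 1 (adjusted p 0.0727 to 0.249), that of TT8 also without msh1 Total 2 (0.105) and that of MYBL2 without WT Total 2 (0.124). The list kept 0 calls without msh1 Total 1, 3 without msh1 Total 2, 0 without WT Total 1 and 4 without WT Total 2. DFR and TT8 are also active in the seed coat, whose markers were lower in msh1 Total.

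Cold-regulated genes and dehydrins were lower at 4 of 16 members (median -0.50). GolS3, a galactinol synthase, averaged 3.26 ± 1.18 CPM in msh1 Total and 18.3 ± 4.71 CPM in WT Total (SD, n = 2 each; log2 fold change -2.46 ± 0.31, edgeR adjusted p = 0.0008), and LTI30, a dehydrin, at 69.5 and 69.8 CPM in msh1 Total, against 142 and 129 CPM in WT Total (-0.96, edgeR adjusted p = 0.0275). The LTI30 call ended without each of the 4 Total libraries (adjusted p 0.0974 to 0.25) or WT TRAP 2 (0.0566). Calls in this list numbered 4 without msh1 Total 2 and 1 without each of the other Total libraries. DREB1A, a cold response factor, differed between the msh1 libraries, at 2.80 and 12.1 CPM in msh1 Total, against 34.6 and 38.0 CPM in WT Total.

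Among hormone and stress genes, JMT, which methylates jasmonic acid, stood at 2.99 and 2.92 CPM in msh1 Total, against 12.4 and 10.4 CPM in WT Total (-1.94 ± 0.31, edgeR adjusted p = 0.00326). GA20OX3, a gibberellin 20-oxidase, stood at 0.653 and 1.58 CPM in msh1 Total, against 16.3 and 11.7 CPM in WT Total (-3.59 ± 0.38, edgeR adjusted p = 0.000286). The cytosolic chaperone gene HSP70 stood at 8.12 and 8.76 CPM in msh1 Total, against 18.4 and 20.9 CPM in WT Total (-1.22 ± 0.18, edgeR adjusted p = 0.00211). These 3 calls held without any 1 library. JMT was the only call among 14 tested jasmonate synthesis genes (median 0.01), and GA20OX3 the only call among 7 gibberellin oxidases (median -0.44). Of 20 HSP70, HSP90, HSP101 and heat shock factor genes, 1 was lower, HSP70, and 1 was higher (median -0.16). The lists of JAZ repressors (11 tested, median 0.28), Aux/IAA genes (23, median 0.02), RNA-directed DNA methylation (22, median -0.22) and DNA methylation maintenance (17, median 0.00) held no call.

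The remaining named genes that rose include regulators and enzymes of several pathways. BT2, a BTB and TAZ domain scaffold protein known to answer to light, nutrients and the clock, stood at 560.2 and 268 CPM in msh1 Total, against 51.7 and 78.9 CPM in WT Total, 6.33-fold higher (2.66 ± 0.38, edgeR adjusted p = 0.00157). SOT12, a sulfotransferase, stood at 48.2 and 42.4 CPM in msh1 Total, against 16.9 and 14.4 CPM in WT Total (1.54 ± 0.19, edgeR adjusted p = 0.00075). ABCB4, an auxin transporter, stood at 50.8 and 52.0 CPM in msh1 Total, against 19.6 and 19.6 CPM in WT Total (1.39 ± 0.17, edgeR adjusted p = 0.000582). OXS3, named for oxidative stress tolerance, stood at 71.9 and 60.7 CPM in msh1 Total, against 25.3 and 27.4 CPM in WT Total (1.33 ± 0.20, edgeR adjusted p = 0.00219). UGT74E2, which glucosylates indole-3-butyric acid, stood at 18.9 and 15.6 CPM in msh1 Total, against 6.57 and 7.26 CPM in WT Total (1.31 ± 0.25, edgeR adjusted p = 0.0113). Its call ended without msh1 Total 1 (adjusted p 0.146), WT Total 1 (0.126) or WT Total 2 (0.0738). BBX17 (1.54), the pectin methylesterase ATPMEPCRB (1.48), HR3 and UGT73C6 (1.24), which overlaps AT2G36792, were also higher. The 4 calls ended without msh1 Total 1 (adjusted p 0.186 to 0.451) or WT Total 1 (0.0992 to 0.242). Those of BBX17, ATPMEPCRB and UGT73C6 also ended without WT Total 2 (0.0783 to 0.193), that of HR3 without msh1 Total 2 (0.0539), and those of BBX17 and ATPMEPCRB without either WT TRAP library (0.0509 to 0.0766). SOT12, ABCB4 and UGT74E2 are also among the 8 higher members of the mitochondrial dysfunction list.

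The deepest fall among all named loci was in AT2G01422, a non-coding RNA gene on chromosome 2 (chr2:183940-184734, plus strand). It had 1 and 3 counts in msh1 Total, against 136 and 221 counts in WT Total, a ratio of 0.0126 with an exact interval of 0.00342 to 0.0326 (log2 fold change -6.20 ± 0.43, edgeR adjusted p = 2.58e-05). In the TRAP fraction it stood at 0.127 and 0 CPM in msh1, against 20.8 and 17.2 CPM in WT. The neighbouring gene PIN4, an auxin efflux carrier, stood at 63.1 and 57.3 CPM in msh1 Total, against 47.0 and 48.3 CPM in WT Total (0.34, edgeR adjusted p = 0.238). What the transcript does is not annotated.

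The same genotypes were compared in TRAP, where 8818 genes were called (41.6% of those tested). A test of the difference between the fractions, the genotype by fraction interaction, was past the threshold for 3312 genes (15.6%), among them 110 of the 824 called in Total. AT1G30680 and CR88, the plastid HSP90, were higher in msh1 Total and lower in msh1 TRAP, and the glucosinolate gene FMO GS-OX1 and LTI30 were lower in msh1 Total and higher in msh1 TRAP. CR88 stood at 309 and 333 CPM in msh1 Total, against 199 and 212 CPM in WT Total (0.64 ± 0.15, edgeR adjusted p = 0.0292), and this call ended without each of the 4 Total libraries (adjusted p 0.191 to 0.323).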

How the data were processed

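Messenger RNA of floral stems was sequenced in 8 libraries of 4 groups, msh1 Total, msh1 TRAP, WT Total and WT TRAP, with groups and replicate numbers taken from the sample titles. Per the labels' protocols, RNA was purified on columns, and the library preparation was TruSeq RNA v2, which does not mark strand. The authors deposited raw counts per locus and library as whole numbers; the submitters' processing notes name the TAIR10 build and DESeq2. Aligner and counting program were not given in the sources used here. Without strand, reads of overlapping genes on opposite strands cannot be told apart. The 5 closing lines of each table name no gene and entered neither library sizes nor tests. In the Total libraries, reads in no gene made up 38.5012 to 40.4843% of listed counts and ambiguous reads 0.5802 to 1.1233%.

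The test was edgeR's quasi-likelihood test (version 4.0.16, R 4.3.3; glmQLFit, glmQLFTest) in 1 fit of the 4 groups, after filterByExpr and TMM scaling, with no term for replicate number. Benjamini-Hochberg adjustment ran over all 21202 genes that passed the filter, with 0.05 as threshold. CPM are TMM-normalised, and log2 fold changes carry their standard error. Ratios of summed counts, with exact 95% intervals, cover counting error only. DESeq2 1.42.0, other scalings and filters, a fit of the Total libraries alone, a replicate block and leaving out each library were alternatives. Loci, symbols and promoters come from the TAIR10.1 annotation of RefSeq, in which all 32548 nuclear loci matched; BLAST 2.17.0 located the insertion.

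Genes were named by rule: among called genes that have a symbol and average 5 CPM or more over the Total libraries, those with the largest fold in each direction, then members of the gene lists. The 43 lists hold 730 members, of which 686 were tested, 21 called higher and 86 called lower. Members and lists were chosen with earlier results of these data known, and genes or lists added after values were seen are said to be so.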

Additional observations from a re-analysis of the deposited data

Results flagged for a closer look

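Named genes are given here because the effect of genotype differed between TRAP and Total, by the interaction of the edgeR fit over all tested genes. Each value is the log2 fold change of msh1 over WT in TRAP minus that in Total, with its SE, on 2 libraries a group. Genes that changed sign between the fractions were AT1G30680 at -1.43 ± 0.23 (edgeR adjusted p = 0.00313; -0.73 in TRAP, 0.70 in Total) and CR88 at -1.25 ± 0.21 (0.00367; -0.61 in TRAP, 0.64 in Total). FLN2 at -1.18 ± 0.19 (edgeR adjusted p = 0.00349; -0.38 in TRAP, 0.80 in Total) and AT2G07655 of the mitochondrial insertion at -1.08 ± 0.25 (0.0134; -0.30 in TRAP, 0.79 in Total) did so too. The difference of AT2G07655 within TRAP was not past the threshold (edgeR adjusted p = 0.189). For the other genes that changed sign, here and below, the test within TRAP is not given. In the other direction lay FMO GS-OX1 at 1.87 ± 0.22 (edgeR adjusted p = 0.00176; 0.95 in TRAP, -0.92 in Total), IPMI1 at 1.65 ± 0.23 (0.00217; 0.79 in TRAP, -0.86 in Total), LTI30 at 1.79 ± 0.31 (0.00416; 0.83 in TRAP, -0.96 in Total) and MYBL2 at 1.25 ± 0.26 (0.00969; 0.31 in TRAP, -0.93 in Total). With these went the aliphatic glucosinolate genes IPMI2 at 3.0 ± 0.28 (edgeR adjusted p = 0.000599; 2.18 in TRAP, -0.82 in Total), MAM1 at 1.32 ± 0.23 (0.00419; 0.66 in TRAP, -0.66 in Total), SOT17 at 1.27 ± 0.27 (0.00946; 0.36 in TRAP, -0.91 in Total) and FMO GS-OX3 at 1.38 ± 0.32 (0.0142; 0.49 in TRAP, -0.89 in Total). The fall was less deep in TRAP for COL1 at 1.19 ± 0.32 (edgeR adjusted p = 0.0274), GLK2 at 0.82 ± 0.23 (0.034) and GolS3 at 1.41 ± 0.43 (0.0455). It was deeper in TRAP for PAL1 at -0.82 ± 0.22 (edgeR adjusted p = 0.0254), CRA1 at -1.89 ± 0.60 (0.0495) and AT2G07638 of the insertion at -1.0 ± 0.25 (0.0211). The rise of ABCB4 was smaller in TRAP, at -0.87 ± 0.24 (edgeR adjusted p = 0.0322), and that of AT2G21640 larger, at 1.21 ± 0.36 (0.0426). Smaller in TRAP, or near 0 there, were the differences of PTAC14 at -0.66 ± 0.20 (edgeR adjusted p = 0.0465; -0.05 in TRAP, 0.62 in Total), CPN60B at -0.71 ± 0.21 (0.0355; -0.12 in TRAP, 0.60 in Total) and the alanine aminotransferase gene ALAAT2 at -0.88 ± 0.24 (0.03; 0.23 in TRAP, 1.11 in Total). AT5G58610 at -3.12 ± 0.64 (edgeR adjusted p = 0.00898; 0.82 in TRAP, 3.94 in Total) and AT5G41830 at -2.57 ± 0.79 (0.0442; -0.06 in TRAP, 2.52 in Total), both chosen after their values were seen, were at most 0.421 CPM in WT Total.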

How the results depend on the processing

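The 824 calls, 174 higher and 650 lower, with 107 list members among them, stood at 833, 171, 662 and 110 with RLE size factors, and at 864, 188, 676 and 115 with DESeq2. Without a filter on low counts they were 1770, 517, 1253 and 184, and with the Total libraries alone 2708, 1030, 1678 and 226. Leaving out 1 library gave 219 to 1650 calls, 41 to 634 higher, 175 to 1063 lower, 46 to 157 list members, and 1009 to 5575 interaction calls against 3312. The labels do not say whether samples of the same replicate number share plants or a day. Their deviations from the group means had a correlation of -0.017 between msh1 Total and WT Total, -0.198 between msh1 Total and msh1 TRAP, -0.243 between WT Total and WT TRAP, and -0.031 to 0.083 between the other groups, so the numbers were not taken as pairs. With the replicate block there were 656 calls, 123 higher and 533 lower. Of 128 named genes, none changed direction under another scaling, filter, test or the block. The sign changed only when 1 library was left out, in genes that had not passed the test: AOX1D (-1.25 to 0.08), NAC053 (-0.24 to 0.00), NDC1 (-0.06 to 0.09; -0.03 without WT Total 2), DRL1 (-0.03 to 0.09), ER (-0.02 to 0.14), CYP83B1 (-0.13 to 0.28) and TIFY7 (-0.26 to 0.68), each given as the range of log2 fold changes over the 8 leave-outs. With 2 libraries a group, small differences near the threshold were not firmly called, and genes under the floor of 3 counts could not be ranked.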
